A study of Mus musculus with 8 samples.

Results

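The clustered histone genes of the mouse testis were followed in whole testes of control mice and of mice that received valine, an essential amino acid with a branched side chain. Members were the protein-coding genes whose symbols start with Hist1h, Hist2h, Hist3h or Hist4h, and 67 of the 55414 genes in the expression table met this rule. They comprised 6 H1 genes, 18 H2A, 18 H2B, 12 H3 and 13 H4 genes. The Hist1 cluster on chromosome 13 held 54 of them, the Hist2 cluster on chromosome 3 held 10, the Hist3 cluster on chromosome 11 held 2 and the single Hist4 gene lay on chromosome 6.

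RNA from 4 control and 4 valine samples was sequenced, and expression was given as FPKM, the mapped fragments of a gene per unit of exon length and of library depth. The sources used here do not state the strain, age, valine dose, route or duration, nor that each sample came from its own animal. The p-values therefore measure only how far these samples spread, and that spread may be technical. Multiplying low FPKM values by exon length and depth gave whole fragment numbers for 99.35% to 99.52% of them per library (tolerance 0.05 fragments), at depths of 6643000 to 7675000 fragments. This assumes that the authors' exon lengths equal those of the GENCODE release used here, and that the smallest step is 1 fragment. The values of all 67 members came out whole in all 8 libraries, so each member's level can be read as a number of fragments. FPKM totals were 944659 to 974626 in control and 1027662 to 1070524 in valine libraries and thus higher in every valine library.

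The core histones H2A, H2B, H3 and H4 form the nucleosome, around which DNA is wrapped, and the linker histone H1 binds the DNA where it enters and leaves. Most clustered genes are replication-dependent. They are transcribed in S phase, have no introns, and give mRNAs that end in a conserved stem-loop instead of a poly(A) tail. The male germ line also uses testis-specific members, H1t (Hist1h1t), TH2A (Hist1h2aa) and TH2B (Hist1h2ba), which are made in spermatocytes before most histones are replaced by transition proteins and then protamines in spermatids.

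The 2 leading genes stood far above the other members. Hist1h2bp, an H2B gene, had a mean of 127.8 FPKM over the 8 libraries and ranged from 102.8 to 156.8. Hist1h4a, an H4 gene, had a mean of 112.8 FPKM and ranged from 87.5 to 153.0. Together they held 49.5% of the summed FPKM of all 67 members. The next gene in the order was the testis-specific Hist1h2ba, at 25.6 FPKM with a range of 13.7 to 33.6. This drop from the second to the third gene was the only place among the top 12 where the ranges of neighbours did not overlap, so the order below it is not resolved gene by gene.

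Hist2h2be and Hist1h2bc, both H2B genes, followed at 19.4 and 16.2 FPKM. The H3 genes Hist1h3a, Hist2h3c2 and Hist1h3h had means of 15.6, 14.3 and 12.2 FPKM. The testis-specific H2A gene Hist1h2aa had a mean of 9.94 FPKM. Hist3h2a, an H2A gene of the Hist3 cluster, had 9.16 FPKM, and Hist1h1c, which encodes the somatic linker histone H1.2, had 9.13 FPKM. In all, 9 members had a mean above 10 FPKM, 29 lay between 1 and 10, 24 were above 0 but under 1, and 5 were listed at 0 in every library.

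**Figure D1:**
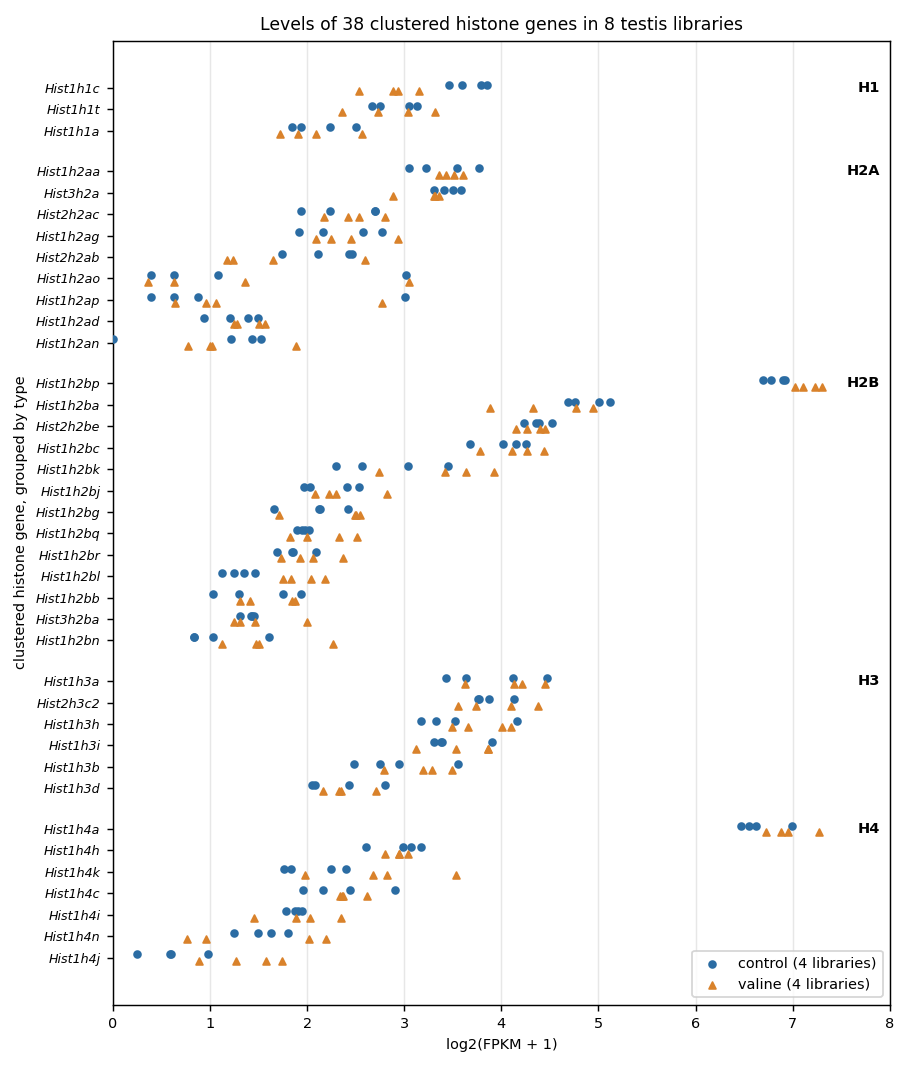
FPKM of the 38 clustered histone genes that averaged at least 1 FPKM, as log2(FPKM + 1) on the x axis, with the genes on the y axis grouped by histone type. Circles are the 4 control libraries and triangles the 4 valine libraries. Hist1h2bp and Hist1h4a stand apart on the right, at means of 127.8 and 112.8 FPKM.

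Of the testis-specific members, Hist1h2aa led its type and the others did not. Within H1, Hist1h1c ranked first, ahead of Hist1h1t at 6.51 FPKM and Hist1h1a, the gene of the subtype H1.1, at 3.38 FPKM. The other somatic linker histone genes, Hist1h1b, Hist1h1e and Hist1h1d, were at 0.285, 0.240 and 0.122 FPKM. Their annotated exons span 743, 1930 and 7425 bases, so this order is not that of the fragments. Hist1h1d held 20 control and 32 valine fragments, Hist1h1e 15 and 12, and Hist1h1b 3 and 9. Within H2A, Hist1h2aa ranked first, and its range overlapped that of Hist3h2a. Within H2B, Hist1h2ba ranked second after Hist1h2bp. The top gene held 82.1% of the summed level of the H4 genes, 58.0% of the H2B genes and 46.5% of the H1 genes, but 24.0% of the H2A genes and 23.4% of the H3 genes.

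Levels of near-identical copies are uncertain, because the sources used here do not state how reads that match several genes were counted. The coding sequence of 8 members was identical to that of another member, as in Hist1h2ao with Hist1h2ap and Hist1h2bq with Hist1h2br, and 16 members had a partner with over 99% identity. The share of 50-base stretches of a gene's transcripts that occur in no other gene was 50.5% in the median member. It was 91.5% for Hist1h1c, 100% for Hist1h1t, 97.7% for Hist1h2aa and 61.8% for Hist1h2ba. It was 55.9% for Hist1h2bp and 59.6% for Hist1h4a, but 17.2% for Hist1h2bl and 6.08% for Hist1h3h. The median share was 10.6% in the 5 members listed at 0, which were Hist2h2aa1, Hist2h2aa2, Hist2h2bb, Hist2h3b and Hist2h3c1. Of these, Hist2h2aa2 and Hist2h3c1 had no stretch of their own.

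The promoters of the genes the results turn on are shown so that the elements of each histone type can be seen beside the levels. They are the 250 bases before the start in RefSeq (GRCm38.p6), printed 5′ to 3′ on the gene's strand. Capitals mark the octamer ATTTGCAT, the CAAT box letters CCAAT, the TATA box letters TATAAA, the H1 element AAACACA and the H4 element GGTCCG, each searched on both strands, and in these 6 sequences no 2 of the marked matches overlap.
Hist1h1c, chr13:23738557-23738806, plus strand: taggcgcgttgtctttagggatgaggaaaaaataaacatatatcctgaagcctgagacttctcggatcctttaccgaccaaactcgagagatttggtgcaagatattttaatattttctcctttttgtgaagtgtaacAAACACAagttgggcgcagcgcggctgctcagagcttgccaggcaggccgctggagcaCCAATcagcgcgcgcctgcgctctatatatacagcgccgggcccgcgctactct
Hist1h1t, chr13:23695561-23695810, plus strand: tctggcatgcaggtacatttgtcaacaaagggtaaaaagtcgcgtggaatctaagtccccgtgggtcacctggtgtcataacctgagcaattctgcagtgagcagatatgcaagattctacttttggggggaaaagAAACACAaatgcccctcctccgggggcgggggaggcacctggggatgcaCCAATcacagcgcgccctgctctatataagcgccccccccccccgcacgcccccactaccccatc
Hist1h2ba, chr13:23934157-23934406, minus strand: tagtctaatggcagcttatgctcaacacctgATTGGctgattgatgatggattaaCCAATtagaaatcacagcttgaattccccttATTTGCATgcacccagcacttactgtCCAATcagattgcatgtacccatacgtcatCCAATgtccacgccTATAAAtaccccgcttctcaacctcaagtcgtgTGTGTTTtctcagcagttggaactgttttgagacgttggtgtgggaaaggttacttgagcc
Hist1h2bp, chr13:21787238-21787487, plus strand: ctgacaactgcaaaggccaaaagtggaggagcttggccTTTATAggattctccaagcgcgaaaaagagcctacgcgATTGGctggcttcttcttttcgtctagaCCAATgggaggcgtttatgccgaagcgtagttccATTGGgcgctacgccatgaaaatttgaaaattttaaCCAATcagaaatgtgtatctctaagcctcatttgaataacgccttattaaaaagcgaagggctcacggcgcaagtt
Hist1h2bl, chr13:21716184-21716433, minus strand: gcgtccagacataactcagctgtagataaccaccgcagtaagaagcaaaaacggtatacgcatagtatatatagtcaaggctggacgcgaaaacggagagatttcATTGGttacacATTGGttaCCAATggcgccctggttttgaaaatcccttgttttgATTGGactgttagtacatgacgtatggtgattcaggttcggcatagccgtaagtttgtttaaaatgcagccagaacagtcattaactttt
Hist1h4a, chr13:23761250-23761499, minus strand: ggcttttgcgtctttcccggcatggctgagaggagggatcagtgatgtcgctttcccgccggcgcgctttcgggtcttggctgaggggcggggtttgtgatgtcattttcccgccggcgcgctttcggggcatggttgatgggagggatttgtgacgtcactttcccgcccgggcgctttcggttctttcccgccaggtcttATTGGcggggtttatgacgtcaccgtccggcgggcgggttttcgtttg
RefSeq held a promoter for 61 of the 67 members, and motif shares were compared with all 32851 promoters of the same length.

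Motif content differed by type. CCAAT, the letters bound by the factor NF-Y, occurred in all 6 H1, all 17 H2A and all 16 H2B promoters, in 8 of 10 H3 promoters and in 3 of 12 H4 promoters, against 33.8% of all promoters. AAACACA, an element known from H1 promoters, was found in 5 of 6 H1 promoters (83.3%), against 6.25% of all. It is seen in both Hist1h1c and the testis-specific Hist1h1t above, each with a CCAAT nearer the start. The octamer ATTTGCAT, the binding letters of OCT1, occurred in 7 of 17 H2A and 6 of 16 H2B promoters and in none of the H1, H3 or H4 promoters, against 1.6% of all. Of the printed H2B promoters, Hist1h2ba has it and Hist1h2bp and Hist1h2bl do not. GGTCCG, a core of the H4 subtype element, was present in 9 of 12 H4 promoters (75%), against 6.72% of all, and is not in the 250 bases of Hist1h4a. TATAAA occurred in 29 of 61 members' promoters (47.5%), against 12.4% of all. The H2A and H2B counts are not independent of each other. Where an H2A and an H2B gene lie head to head, with 175 to 305 bases between them, their 250-base windows overlap. Both strands were searched, so the same match can be counted under both types. A match is a description of these letters and not a measured binding site.

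H2A and H2B genes often lie head to head and share the stretch between their starts. On GRCm38, 12 such pairs were found, with 175 to 305 bases between the genes. The H2B gene had the higher mean FPKM in 10 of the 12 pairs. In the pair of Hist1h2an and Hist1h2bp, the H2A gene stood at 1.29 FPKM and the H2B gene at 127.8 FPKM, a 98.9-fold difference. In the pair of Hist1h2ac and Hist1h2bc the means were 0.175 and 16.2 FPKM, 92.6-fold apart. The testis-specific pair, Hist1h2aa and Hist1h2ba, was closer, at 9.94 and 25.6 FPKM, a 2.57-fold difference across 305 bases. The H2A gene was higher in the pairs of Hist1h2ag with Hist1h2bj, at 4.387 and 3.997 FPKM, and of Hist1h2ad with Hist1h2bf, at 1.53 and 0.515 FPKM. These levels describe unequal mapped fragments in each pair, and the share of unique stretches differed too, at 14.2% for Hist1h2an beside the 55.9% of Hist1h2bp.

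**Figure D2:**
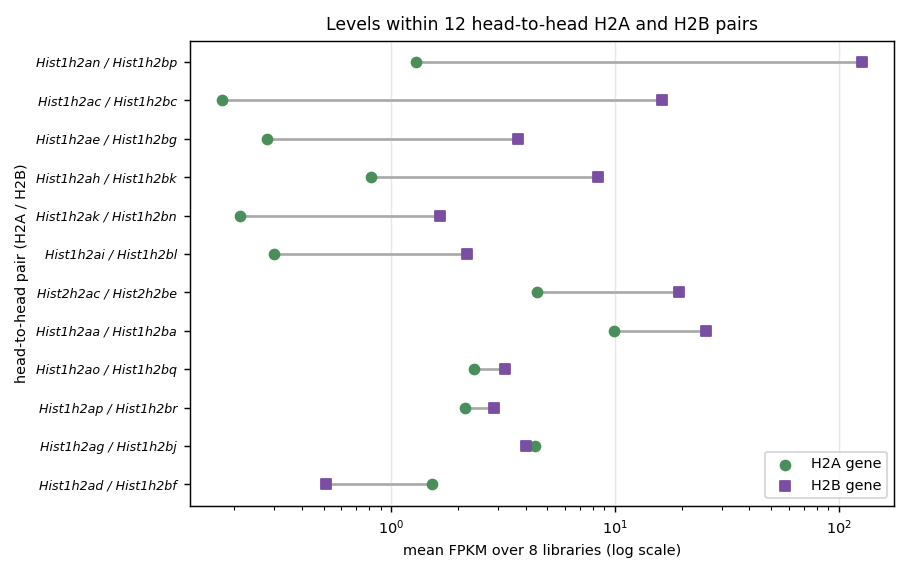
Mean FPKM over the 8 libraries (x axis, log scale) of the H2A gene (circle) and the H2B gene (square) in each of the 12 head-to-head pairs on the y axis. The H2B gene is to the right in 10 pairs, by 98.9-fold in the pair of Hist1h2an and Hist1h2bp.

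The comparison of valine with control asked which clustered histone genes changed in the testis after valine. Few did. Hist1h1c fell, and Hist1h2bl and Hist1h2bp rose, while the other 35 tested members did not pass the threshold. The test was limma on log2(FPKM + 1) over the 22077 genes that averaged at least 1 FPKM, with a Benjamini-Hochberg adjusted p below 0.05 as the threshold. Of the 67 members, 38 reached that level and 29 did not. The member just inside was Hist1h4j, at a mean of 1.09 FPKM, which it reached only through the valine libraries, and those just outside were Hist1h2af at 0.999 and Hist1h4m at 0.990 FPKM.

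The 3 members past the threshold are 7.89% of the 38 tested, against 8.73% of all tested genes, so the share was near the background. Separately by direction, 2 members were higher, against 4.32% of all tested genes, and 1 was lower, against 4.41%. The groups did not overlap for 3 of the 38 members, against 18.4% of all tested genes. By direction these were 2 higher, against 8.99%, and 1 lower, against 9.39%. An unadjusted limma p below 0.05 was reached by 4 members (10.5%), against 25.6% of all tested genes. The 4 include Hist1h4j, which entered the test only through the valine libraries, so that count is not free of the filter.

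Most members had a small positive difference. It was above 0 in 29 of 38 tested members (76.3%), again with Hist1h4j among them, against 53.6% of all tested genes. The median log2 difference was 0.10 for the members and 0.02 for all tested genes. Short genes as a whole had a median of 0.15, taken over the 4339 shortest tested genes, whose exons span 12 to 807 bases and which include 28 of the 38 members. Of these short genes 65.8% had a positive difference, 5.02% were called higher and 0.876% lower, 5.9% in all. With a smooth trend on gene length removed from each library, the members' median was −0.03 and 0 members were called higher.

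**Figure D3:**
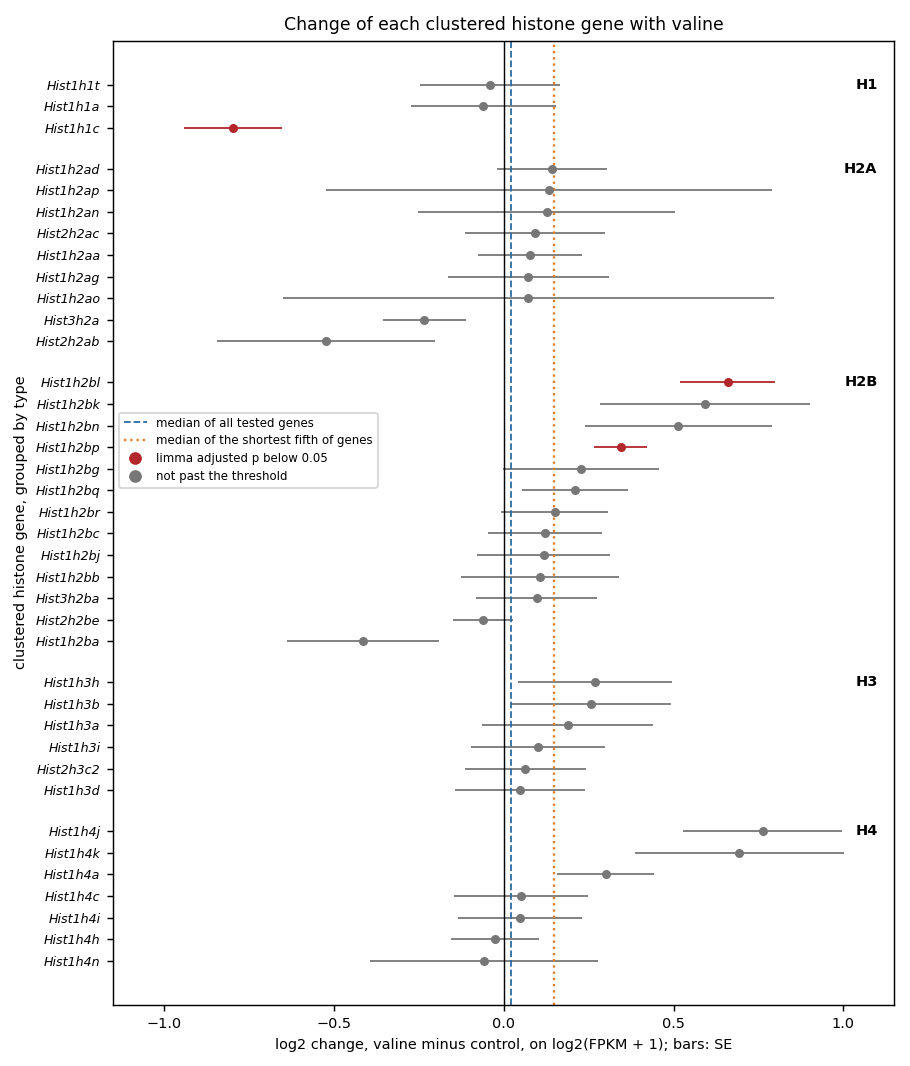
Log2 difference on log2(FPKM + 1), valine minus control (x axis), for the 38 tested members (y axis, grouped by type), with bars of 1 SE. The 3 genes past the threshold are in red, the dashed line is the median of all tested genes (0.02) and the dotted line that of the shortest genes (0.15).

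Among the 6 linker histone genes, 3 were tested, 1 fell and 0 rose. Hist1h1c stood at 11.1, 13.4, 12.8 and 9.99 FPKM in the control libraries (replicates 1 to 4, the order used throughout), and the valine libraries had 7.91, 6.64, 6.40 and 4.78 FPKM. Every valine library lay below every control library. The means were 11.8 ± 1.58 and 6.43 ± 1.29 FPKM (SD, n = 4 each), a log2 difference of −0.80 ± 0.145 (SE) with a limma adjusted p of 0.0157. In fragments, the control libraries held 133, 140, 135 and 117 and the valine libraries 82, 74, 76 and 55, or 525 against 287 in all. The gene stayed past the threshold in 18 of 18 alternative analyses, at log2 differences of −0.90 to −0.68 and limma adjusted p of 0.0104 to 0.0467.

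H1.2 is counted among the somatic subtypes of linker histone, and bulk values do not show which testis cells made it. Markers of several somatic cell types moved in the same direction as Hist1h1c, but those of Sertoli cells did not. All 7 Leydig cell markers fell, including Cyp11a1, the enzyme that starts steroid synthesis, from 115.5 to 19.0 FPKM, as did Hsd17b3 and Hsd3b1. Their summed level was 1580 to 2243 FPKM in control and 461 to 751 FPKM in valine libraries. Of 7 macrophage markers 3 fell (Lyz2, Csf1r, C1qa), and the list's sum went from 91.9 to 113 FPKM in control down to 43.2 to 56.6 FPKM in valine libraries. Of the tested endothelial markers 3 of 5 fell (Eng, Cdh5, Cldn5), as did 2 of 5 peritubular myoid markers (Acta2, Lmod1). No gene of these 4 lists rose, and over all tested genes 4.32% were called higher and 4.41% lower. Of 11 Sertoli cell markers 0 fell and 1 rose, with a median log2 difference of 0.04. Their summed level was 666 to 773 FPKM in control and 667 to 726 FPKM in valine libraries. Of 5 adipocyte markers Plin1 fell, while Adipoq had means of 30.9 and 34.4 FPKM and did not pass the test. Control replicate 1 stood apart in this list, with 29.8 FPKM of Cfd and 14.6 FPKM of Car3, against at most 1.77 and 1.65 FPKM in the other controls. Of 11 spermatogonial markers Kit and Zbtb16 fell, but 6 had a positive difference, the median was 0.08, and the sums overlapped, at 97.5 to 108 FPKM in control and 101.1 to 111 FPKM in valine libraries. The part of these cell types in the fall of Hist1h1c was not tested, and in bulk tissue fewer cells of a type and less RNA per cell cannot be told apart.

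The testis-specific linker histone gene did not pass the test. Hist1h1t had 7.29, 5.75, 5.36 and 7.74 FPKM in the control libraries and 4.13, 7.22, 8.93 and 5.64 FPKM in the valine libraries. The valine values lay on both sides of the control values. The log2 difference was −0.04 ± 0.207 (SE; limma adjusted p = 0.931), and each group held 172 fragments in all. Hist1h1a had means of 3.45 ± 0.943 and 3.30 ± 1.14 FPKM (SD, n = 4 each), a log2 difference of −0.06 ± 0.213 (limma adjusted p = 0.896). The summed level of the 6 H1 genes was 20.9 to 23.4 FPKM in control and 13.4 to 19.7 FPKM in valine libraries. Without Hist1h1c the sums were 8.09 to 13.4 and 8.62 to 13.1 FPKM, so the gap between the groups lay in that gene.

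Of the 9 tested H2A genes, 0 rose and 0 fell, and the median log2 difference was 0.08. Hist1h2aa, the gene of TH2A, had 10.7, 7.29, 8.35 and 12.6 FPKM in control and 9.26, 11.1, 9.77 and 10.4 FPKM in valine libraries. The valine libraries lay within the control range. Its log2 difference was 0.08 ± 0.153 (limma adjusted p = 0.800). Hist3h2a had the smallest p of the type, with means of 9.95 ± 0.880 and 8.37 ± 1.35 FPKM (SD, n = 4 each) and a log2 difference of −0.23 ± 0.122 (limma adjusted p = 0.273).

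Of the 13 tested H2B genes, 2 rose and 0 fell, and 11 had a positive difference, with a median of 0.15. Hist1h2bp, the leading gene of the family, had 102.8, 119.8, 118.7 and 108.5 FPKM in control and 137.1, 149.5, 129.0 and 156.8 FPKM in valine libraries. The lowest valine library stood above the highest control library. The means were 112 ± 8.21 and 143 ± 12.4 FPKM (SD, n = 4 each), a log2 difference of 0.34 ± 0.0769 (SE) with a limma adjusted p of 0.0309. Behind these values were 557, 565, 566 and 575 fragments in control and 643, 754, 693 and 817 fragments in valine libraries. The call held in 6 of 18 alternative analyses, whose limma adjusted p ran from 0.0241 to 0.110. It was lost with equal totals (log2 difference 0.23, adjusted p 0.0782), with the length trend removed (0.22, adjusted p 0.105) and without any of control replicates 1, 2 and 4 or valine replicates 1, 2 and 4 (adjusted p 0.0504 to 0.0824). Quantile normalisation (0.23, adjusted p 0.110) and no filter on low values (adjusted p 0.0567) lost it too. So did moderation without trend (adjusted p 0.0596) and the replicate block (adjusted p 0.0656).

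The other H2B gene that rose, Hist1h2bl, was low. It had 1.37, 1.18, 1.55 and 1.75 FPKM in control and 2.37, 2.57, 3.10 and 3.56 FPKM in valine libraries, and the groups did not overlap. The means were 1.46 ± 0.244 and 2.90 ± 0.535 FPKM (SD, n = 4 each), a log2 difference of 0.66 ± 0.139 (SE) with a limma adjusted p of 0.0253. The pseudocount of 1 makes this smaller than the difference of the raw means. The values rest on 4, 3, 4 and 5 control fragments and 6, 7, 9 and 10 valine fragments, or 16 against 32 in all. The within-group variance of these numbers over their mean was 0.333, where counting error alone gives a value near 1. The SE and adjusted p of this gene may therefore be too small for so few fragments. The call held in 11 of 17 alternative analyses (limma adjusted p 0.0224 to 0.0709). It was lost with the length trend removed (log2 difference 0.53, adjusted p 0.0666) and with no filter on low values, where the difference was again 0.66 (adjusted p 0.0591). It was also lost without control replicate 1 or 2 or valine replicate 3 or 4 (log2 differences 0.58 to 0.64, adjusted p 0.0615 to 0.0709).

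Hist1h2ba, the gene of TH2B, had 24.8, 26.1, 31.2 and 33.6 FPKM in control and 13.7, 26.3, 29.8 and 19.0 FPKM in valine libraries. Valine replicates 1 and 4 were below all controls, and replicates 2 and 3 lay among them. The means were 28.9 ± 4.19 and 22.2 ± 7.20 FPKM (SD, n = 4 each), a log2 difference of −0.41 ± 0.223 that did not pass the test (limma adjusted p = 0.288). The testis-specific members as a group therefore gave 0 calls of 3, with differences of −0.41, −0.04 and 0.08. Hist2h2be, which was chosen after its values were seen because it is the H2B gene best measured in unique sequence (100% of its stretches), had means of 19.8 and 19.0 FPKM (log2 difference −0.06 ± 0.0889, limma adjusted p = 0.721).

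**Figure D4:**
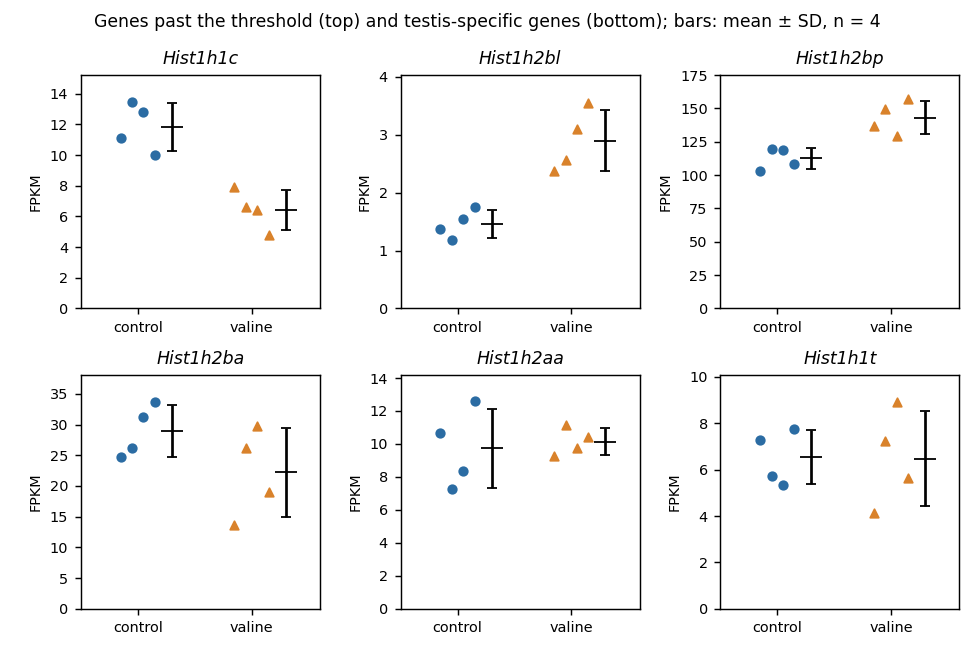
FPKM in each library (y axis) for the 3 genes past the threshold (top row) and the 3 testis-specific genes (bottom row), with control as circles and valine as triangles. Bars are the mean ± SD of 4 libraries. The groups separate for Hist1h1c, Hist1h2bl and Hist1h2bp and overlap for Hist1h2ba, Hist1h2aa and Hist1h1t.

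The summed level of the H2B genes was 188 to 215 FPKM in control and 216 to 257 FPKM in valine libraries. Without Hist1h2bp the ranges were 85.7 to 96.0 and 78.8 to 102 FPKM and overlapped. As a share of each library's FPKM total, all H2B genes together made 0.0200% to 0.0223% in control and 0.0208% to 0.0240% in valine libraries, which also overlapped. The ratio of the group means was 1.17 in FPKM and 1.08 as a share of the total.

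All 6 tested H3 genes had a positive difference, with a median of 0.14, but 0 passed the threshold. The smallest p belonged to Hist1h3h, at 10.5, 8.01, 9.01 and 16.9 FPKM in control and 15.02, 11.6, 10.2 and 16.1 FPKM in valine libraries (log2 difference 0.27 ± 0.226, limma adjusted p = 0.505). The groups overlapped, and control replicate 4 was the highest library of all 8. The same library was the highest control for 6 of 6 tested H3 genes, and valine replicate 3 the lowest valine library for 5 of 6. Hist1h3a had means of 14.7 ± 5.14 and 16.6 ± 3.96 FPKM, and Hist2h3c2 13.8 ± 1.83 and 14.8 ± 4.04 FPKM (SD, n = 4 each). The summed H3 level was 50.5 to 86.6 FPKM in control and 53.4 to 84.2 FPKM in valine libraries.

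Of the 7 tested H4 genes, 0 passed the threshold and the median difference was 0.05. Hist1h4a had 87.5, 92.8, 97.2 and 126.5 FPKM in control and 123.2, 117.2, 104.6 and 153.0 FPKM in valine libraries. Control replicate 4 was above 3 of the valine libraries, and the other controls were below all of them. The means were 101.01 ± 17.5 and 124 ± 20.6 FPKM (SD, n = 4 each), with a log2 difference of 0.30 ± 0.142 (limma adjusted p = 0.228). Hist1h4j, the lowest tested member, was at 0.505, 0.967, 0.191 and 0.516 FPKM in control and 2.33, 1.99, 0.849 and 1.40 FPKM in valine libraries, from 3, 5, 1 and 3 against 12, 11, 5 and 8 fragments. Valine replicate 3 lay below control replicate 2, so the groups overlapped. Its control mean of 0.545 FPKM was under the level for testing and its valine mean of 1.64 FPKM above it, so the group where it was high brought it into the test, and its p, which missed the threshold, is not given. Hist1h4h had means of 6.86 ± 1.26 and 6.65 ± 0.515 FPKM (SD, n = 4 each; log2 difference −0.03).

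The lower members rest on few fragments. Of the 38 tested genes, 12 had a median of fewer than 10 fragments per library and 19 fewer than 25. The within-group variance of the fragment number divided by its mean, which is near 1 where counting error is the only source of spread, had a median of 2.1 (without scaling for depth) and was below 2 in 18 members. It was above 5 in 5 members, Hist1h4a (15.9), Hist1h2ao (14.98), Hist1h2ap (12.7), Hist2h3c2 (6.41) and Hist1h3a (5.02), all chosen here after their values were seen.

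Genes that serve clustered histone mRNA were compared from lists that carry none of the members. Of 19 genes for its transcription, stem-loop processing and decay, 0 were higher and 0 lower, with a median log2 difference of −0.08. The smallest p was that of Cstf2t, a testis-expressed cleavage factor, at 28.8 ± 3.28 and 23.8 ± 2.30 FPKM (limma adjusted p = 0.130). Of 18 tested genes of DNA replication and S phase, 0 were higher and 0 lower, with a median of 0.01. Pcna, the sliding clamp of DNA polymerase, came closest, at 70.4 ± 5.45 and 84.3 ± 8.63 FPKM (limma adjusted p = 0.101; SD, n = 4 in each group for both genes). Of 10 RNAs known to carry no poly(A) tail, 6 were matched and 0 reached the level for testing. Rmrp, Rpph1, Rny1 and Rny3, small RNAs that most cells use, were listed at 0 in all 8 libraries, which does not show that they were absent from the tissue, and the matched RNAs summed to at most 2.37 FPKM in any library. Whether the libraries were selected for poly(A) RNA is not stated, and its part in the levels of the clustered genes was not tested.

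Histone genes outside the clusters, most of them replacement or testis variants, were compared in the same way. Of 17 tested, 5 rose and 1 fell, with a median log2 difference of 0.17, against 4.32% and 4.41% of all genes called in each direction. H2al2a, a short H2A variant of condensing spermatids, rose from 418 ± 3.69 to 615 ± 45.9 FPKM (log2 difference 0.55, limma adjusted p = 0.00284). H2bl1, a testis H2B variant, rose from 432 ± 25.8 to 583 ± 38.2 FPKM (0.43, limma adjusted p = 0.00704). H1f0, the linker histone H1.0 of non-dividing cells, fell from 23.7 ± 0.903 to 17.0 ± 1.99 FPKM (−0.47, limma adjusted p = 0.0172; SD, n = 4 in each group for these 3 genes). The other 3 that rose, named after their values were seen, were H1fnt, H3f3a and H2afz. The linker histone genes did not all move alike. Hist1h1c and H1f0 fell. So did all 7 Leydig cell markers and some of the macrophage, endothelial and peritubular myoid markers given above, whose part was not tested. H1fnt rose (log2 difference 0.32, limma adjusted p = 0.0314). H1fx (0.24, limma adjusted p = 0.141) and Hils1 (0.13) had positive differences that did not pass the test, and both were named after their values were seen. The difference between the clustered and the other histone genes was not tested.

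Among 17 histone chaperones and remodelling factors, 2 rose and 3 fell, against 4.32% and 4.41% of all tested genes. Rbbp7, a histone-binding subunit of several chromatin complexes, fell from 58.1 ± 9.02 to 35.2 ± 1.79 FPKM (log2 difference −0.70, limma adjusted p = 0.00758). Asf1a, a chaperone of H3 and H4, rose from 8.95 ± 0.844 to 12.05 ± 1.23 FPKM (0.39, limma adjusted p = 0.0428). Supt16, a subunit of FACT, which moves H2A and H2B, fell from 44.2 ± 1.13 to 36.8 ± 1.90 FPKM (−0.26, limma adjusted p = 0.0232; SD, n = 4 in each group for these 3 genes). Of 13 genes of the histone-to-protamine exchange in spermatids, 5 rose and 0 fell, against the same shares of all tested genes. The 5 were the protamine and transition protein genes Prm1, Prm2, Prm3, Tnp1 and Tnp2. No other gene of the list passed, and the closest, Psme4, had a negative difference (−0.39, limma adjusted p = 0.0647). The largest rise was that of Prm3, from 396 ± 24.9 to 574 ± 58.2 FPKM (SD, n = 4 each), and the transition protein gene Tnp1 and the protamine gene Prm1 followed.

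The labels name the tissue as mouse testis. Markers of spermatocytes, round spermatids and elongating spermatids were present at high summed levels in all libraries, while those of spermatogonia summed to 97.5 to 111 FPKM. Elongating spermatid markers moved in the same direction as Hist1h2bp, with 6 of 10 higher (Hmgb4, Oaz3 and Smcp by the most) and a summed level of 15099 to 16375 FPKM in control and 17745 to 19575 FPKM in valine libraries. Their part in the rise of Hist1h2bp was not tested. Of 12 spermatocyte markers 1 rose (Ccna1), but 10 had a positive difference. Their sums in FPKM did not overlap, at 1425 to 1521 FPKM in control and 1566 to 1587 FPKM in valine libraries. FPKM totals were also higher in every valine library. The marker sums were not divided by these totals, so this gap need not hold as a share of the total. Of 10 round spermatid markers 1 rose (Acrbp), 1 fell (Tssk2) and 8 had a positive difference. Their sums overlapped, at 2235 to 2536 and 2077 to 2476 FPKM. The part of these 2 cell types was not tested either. Of 11 Sertoli cell markers 1 rose (Rhox8). Over all tested genes 4.32% were called higher, 4.41% lower, and 53.6% had a positive difference. None of 6 red blood cell markers or of the 1 tested epididymal marker passed the threshold in limma, where Hba-a1 and Rnase10 had the smallest p of each list (adjusted p = 0.315 and 0.515) and 0 had an unadjusted p below 0.05.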

How the data were processed

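Testis RNA of 4 control and 4 valine samples was extracted with Trizol, and an Illumina TruSeq kit made the libraries (per the labels' protocols). The authors deposited FPKM values per Ensembl gene, aligned with HISAT2 to GRCm39 per the submitters' processing notes; no aligner version, quantifier, annotation, strand setting, read length or RNA selection is stated in the sources used here. Symbols, exon lengths and types came from GENCODE vM21 and RefSeq (GRCm38.p6) by Ensembl identifier, naming 52133 of 55414 genes. Of the rows with a cluster symbol, 3 pseudogenes were left out. FPKM is a share of the library's total and per length, so totals and length trends move all members together.

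Values were analysed as log2(FPKM + 1) for the 22077 genes averaging at least 1 FPKM, with limma 3.58.1 in R 4.3.3, treatment as the only term, moderation along a mean-variance trend, and two-sided p-values adjusted by Benjamini and Hochberg's method (threshold 0.05). On simulated data for this comparison (22077 genes, 200 changed), 39% of genes changed by 0.5 and 77% of those changed by 1 on the log2 scale were recovered, with 8 false among 124 calls. The changed genes were drawn only from those with a mean log2(FPKM + 1) above 2. These rates therefore do not cover lower members such as Hist1h2bl. Alternatives were a pseudocount of 0.1, no filter, a filter at 5 FPKM, equal totals, equal medians, quantile normalisation, removal of a length trend, moderation without trend, robust moderation, a replicate block and leaving out each sample. Text names every member past the threshold, the testis-specific members, Hist1h1a, and per type the 2 highest and the smallest p (for H4, Hist1h4j); of other lists, up to 3 called genes by size of change, or else the smallest p. The members and lists were chosen with earlier results of these data known. The labels give no batch, no 2 samples were identical (Spearman's rho across genes 0.914 to 0.922), and 0 sample columns were unused.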

Additional observations from a re-analysis of the deposited data

Results flagged for a closer look

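Each group of 4 libraries was searched for a library whose gap to its nearest neighbour took up more of the group's range than Dixon's limit for 4 values allows. Of 88 groups, 9 had such a library, where chance gives about 1 in 20. Hist1h2ao, an H2A gene, stood at 7.094 FPKM in control replicate 3 against 0.312 to 1.11 in the other controls. Its coding-identical neighbour Hist1h2ap stood at 7.065 FPKM in the same library, against 0.311 to 0.83, and at 5.81 FPKM in valine replicate 2, against 0.562 to 1.091. The 2 copies cannot be told apart by their coding sequence.

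Hist1h2an, the H2A neighbour of Hist1h2bp, had 2.681 FPKM in valine replicate 1, against 0.713 to 1.034 in the other valine libraries, from no more than 7 fragments. Hist1h2bg, an H2B gene, was low in valine replicate 2, at 2.266 FPKM against 4.628 to 4.822. Hist3h2a was low in valine replicate 3, at 6.368 FPKM against 8.908 to 9.279. Hist1h4c, an H4 gene, had 5.123 FPKM in valine replicate 2, against 4.039 to 4.167. Hist1h3i, an H3 gene, had 13.93 FPKM in control replicate 4, against 8.876 to 9.472. The summed H4 level was 153.7 FPKM in the same library, against 111.2 to 118 FPKM in the other controls.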

How the results depend on the processing

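Hist1h1c was the 1 member called lower in every alternative run. The number of members called higher, 2 as reported, was 0 with no filter and with the length trend removed, 1 with a filter at 5 FPKM, equal totals, quantile normalisation, moderation without trend or the replicate block, and 0 to 2 when each library was left out; the cause was not tested. It was 0 without control replicate 1, control replicate 2 or valine replicate 4. Over all genes, the 954 higher and 974 lower calls became 363 and 2022 with equal totals, 630 and 637 with the length trend removed and 581 and 489 with the block. Higher calls were 568 with no filter, 398 with quantile normalisation (1029 lower) and 503 without the trend (847 lower), and a filter at 5 FPKM gave 1110 higher and 732 lower. Leaving out each library gave 381 to 795 higher and 461 to 802 lower. Equal totals moved the median of all genes by −0.10, and the members' median from 0.10 to 0.02. The summed H2B ratio was 1.0757 as a share of the total.

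Same-numbered samples deviated together only weakly (correlations −0.040 to 0.111, other pairs −0.173 to 0.151, 1 of 4 controls best with its own number). Weak correlations over all genes cannot show whether the numbers pair the samples. Under the replicate block Hist1h2bp had a limma adjusted p of 0.0656. The block lowered the SE of Hist1h4a from 0.142 to 0.0706 and of Hist1h3h from 0.226 to 0.118. It raised that of Hist1h1t from 0.207 to 0.241. None of these 3 genes passed the threshold under it.

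Small differences, never called, changed sign. Hist1h2aa was −0.0294 with equal totals and −0.0501 with the length trend removed, and Hist2h3c2 −0.0457 and −0.0497. With a library left out, Hist1h1t, Hist1h1a, Hist1h4h, Hist1h2aa and Hist2h3c2 each turned in at least 1 case, with ranges of −0.1907 to 0.1274, −0.2243 to 0.0652, −0.1431 to 0.0462, −0.0383 to 0.2008 and −0.0801 to 0.1933. At the lowest members, a few fragments per library limit what can be seen.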

Other observations

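The H2A copies Hist1h2ao and Hist1h2ap were high in the same libraries, control replicate 3 and valine replicate 2, and this pattern was noticed in the data. Hist1h2ao had 23 and 25 fragments there and at most 5 elsewhere. Of the 22077 tested genes, 8 were above 2 times every other library in both of these libraries, a number that was 0 to 21 over the 28 possible pairs of libraries. Among the 8 were Tap1 and Tap2, the subunits of the peptide transporter for antigen presentation, which lie outside the histone clusters. Tap1 had 5.353 and 5.114 FPKM in these libraries and at most 2.448 in the others, and Tap2 had 5.678 and 5.629 FPKM against at most 1.902.

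A processed pseudogene of the Hist1 cluster, Hist1h2al, left out as not protein-coding, had more FPKM than any member, at 213 to 431 in control and 274 to 659 in valine libraries, with overlap between the groups.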
